A study of Mus musculus with 6 samples.

Results

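The comparison described here set Th17 cultures against the naive CD4+ T cells from which they were grown. It rested on 4 of the 6 RNA-Seq libraries of the study, 2 labelled Naive and 2 labelled Th17, and all 24223 genes of the count files were considered. Naive CD4+ T cells were isolated with magnetic beads from pooled lymph nodes and spleens of C57BL/6 mice of 1 to 2 months of age that carried no engineered allele. The Th17 libraries came from such cells after activation through CD3 and CD28 with TGF-β, IL-6, IL-1β and IL-23 and with antibodies that block IL-4 and IFN-γ, collected on day 5. Both groups were thus prepared from C57BL/6 CD4+ T cells. They differed in culture, activation, cytokines and time together, which cannot be told apart in this comparison. By the paper's flow cytometry the naive preparation was not fully pure, and only a part of the Th17 culture stained for IL-17A. The groups may also have differed in their mix of cells, which was not tested. The labels call the 2 libraries of each group replicates, and the methods call them independent biological replicates, but the pools of mice behind each are not named.

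A naive T cell is a small resting cell that recirculates through lymph nodes under the control of CCR7 and the sphingosine phosphate receptor. Once its antigen receptor is engaged it enlarges, takes up glucose, divides and acquires an effector programme that depends on the cytokines around it. In the presence of IL-6 and TGF-β the result is a Th17 cell, which secretes IL-17A, IL-17F and IL-22 and in the body recruits neutrophils to mucosal surfaces. The description below therefore covers the signalling, transcription factor, metabolic and surface receptor families around that effector programme, in both directions.

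Of the 24223 genes, 17554 had at least 1 count in the 4 libraries and 13407 passed the filter on low counts and were tested. The libraries held 64826757 and 18608805 counts on genes in Naive replicates 1 and 2 and 59973041 and 17742158 in Th17 replicates 1 and 2, so replicate 1 was the deeper library in both groups by 3.48 and 3.38 times. Levels are CPM, the counts of a gene scaled to a TMM-adjusted library total of 1000000. Pairs of values give replicate 1 and then replicate 2. CPM does not divide by gene length, so levels were compared between libraries and not between genes. A limit of detection of 3 counts corresponded to between 0.0453 and 0.184 CPM, depending on the library. A gene was called when edgeR's quasi-likelihood test gave a p-value, after Benjamini-Hochberg adjustment, under 0.01 and its log2 fold change lay beyond 1 in size, where a positive value means a higher level in Th17. Where leaving out a library ended or made the call of a named gene, the edgeR adjusted p-value or log2 fold change without that library is given. Log2 fold changes are given ± SE, and a called gene has an adjusted p-value under 0.01 where none is printed.

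At these thresholds 721 genes, 5.38% of those tested, were called up in Th17 and 292 genes, 2.18%, were called down. A log2 fold change above 0 was found for 50.9% of the genes tested, and the median over all of them was 0.02. Both Th17 libraries lay above both Naive libraries for 34.3% of the genes tested and below both for 31.5%, and with 2 libraries a group such a separation alone carried little information. These shares are the background against which each gene list is read below. Genes named because they were called are selected for such a separation, so it adds no support for them. The number of calls depended on single libraries. Without Naive replicate 1, 1446 genes were called up and 994 down, and without Naive replicate 2 the numbers were 1108 and 824, with the lone Naive library assumed to vary like the Th17 libraries. Of the 721 genes called up, 698 and 719 were called again without Naive replicate 1 and 2, and 567 and 599 without Th17 replicate 1 and 2.

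**Figure D1:**
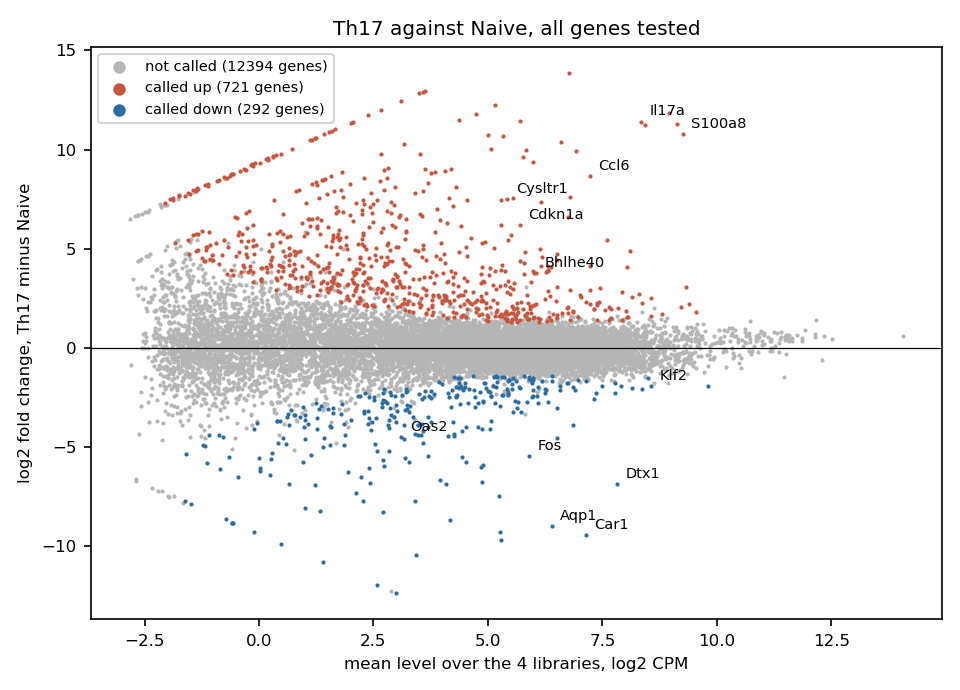
Each point is 1 of 13407 genes tested, with the mean level over the 4 libraries in log2 CPM on the horizontal axis and the log2 fold change, Th17 minus Naive, on the vertical axis. The 721 genes called up lie above the 292 called down, and the points on slanted lines at the left edge had no count in 1 of the groups, so that their fitted change is no measure of size.

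The labels were first checked against marker genes. *Il17a*, the signature cytokine of Th17 cells (GRCm38 chromosome 1, 20730905 to 20734496), stood at 0.317 and 0.0520 CPM in Naive, 558 and 748 in Th17, a log2 fold change of 11.41 ± 0.62 with an edgeR adjusted p of 3.12e-06. *Il21*, a T cell cytokine that sustains the Th17 programme, stood at 1.8 and 1.82 CPM in Naive, 37.7 and 52.7 in Th17 (4.64 ± 0.36, edgeR adjusted p = 2.61e-05). *Il1r1*, the signalling receptor for IL-1, stood at 3.77 and 3.9 CPM in Naive, 72 and 52.2 in Th17 (4.02 ± 0.33, edgeR adjusted p = 3.41e-05). All 3 genes were far higher in both Th17 libraries than in either Naive library. Among the further Th17 markers, *Il17f*, *Il23r*, *Batf* and *Irf4* were called up, whereas *Ccr6* (2.64 and 4.84 CPM in Naive, 7.9 and 5.82 in Th17) and *Rora* (17.3 and 31.5 CPM in Naive, 56.5 and 41.2 in Th17, called without Naive replicate 2 (adjusted p = 5.03e-04)) were not. The Th17 effector list as a whole had 15 of 24 members called up, none called down and a median log2 fold change of 2.73, although DESeq2 called 1 down and edgeR 2 without Naive replicate 1.

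Genes that define a CD4 T cell were present in all 4 libraries. *Cd3e*, a subunit of the antigen receptor complex, stood at 233 and 349.8 CPM in Naive, 219 and 206 in Th17, and *Cd4*, the coreceptor, at 523 and 777 CPM in Naive, 490.5 and 474 in Th17. None of the 24 genes of the T cell receptor complex and its proximal kinases was called by edgeR in either direction, with a median of -0.30. Among them *Cd3d*, a further subunit of the complex, had a log2 fold change of 1.03. Both Th17 libraries lay below both Naive libraries for 12 of the 24 and above both for 3, against 31.5% and 34.3% of all genes. At an unadjusted p under 0.05, 1 was higher and 5 were lower, DESeq2 called 3 down, and edgeR called 4 down without Naive replicate 1. Genes that mark the naive state were also still present in the Th17 libraries. *Ccr7*, the receptor that guides T cells into lymph nodes, stood at 305 and 415 CPM in Naive, 343 and 401 in Th17 (0.05 ± 0.32). *Tcf7*, which encodes the transcription factor TCF-1, stood at 1360.1 and 2307 CPM in Naive, 1853 and 1446 in Th17 (-0.15 ± 0.39). *Lef1*, its close relative, stood at 295 and 499 CPM in Naive, 277 and 259 in Th17 (-0.57 ± 0.34). *S1pr1*, the receptor for exit from lymph nodes, stood at 279 and 368 CPM in Naive, 446 and 422 in Th17 (0.42 ± 0.31). None of these 4 genes was called, and the libraries of the groups overlapped for *Ccr7* and *Tcf7*. In bulk RNA, fewer cells that express a gene and less of its RNA in each cell cannot be told apart.

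Marker genes of other cell types moved with the groups. Of the neutrophil granule list 14 of 18 members tested were called up and 1 down, and the summed level of the list was 444 and 263 CPM in Naive, 3742 and 3614 in Th17. Of the macrophage, monocyte and dendritic cell list 16 of 27 were called up and 1 down, with sums of 390 and 261 CPM in Naive, 1189 and 2379 in Th17. Of the inhibitory and activating myeloid receptors (Gp49, Cd300 and paired immunoglobulin receptors) 16 of 20 were called up. Of the B cell and plasma cell list, 7 of 19 were called up and 1 down, of the mast cell, basophil and eosinophil list 5 of 20 and 1. Of the platelet and megakaryocyte list 10 of 16 were called up and none down, and 3 of 11 stromal and endothelial genes were called up. Without Naive replicate 1, 14 mast cell, basophil and eosinophil genes were called up. Without Th17 replicate 1 the number was 8, with 1 stromal gene, and without Naive replicate 2, 3 macrophage genes were called down. In the opposite direction, 9 of 15 erythroid genes were called down, with sums of 1715 CPM in Naive replicate 1, 314 CPM in Naive replicate 2, and 278 and 322 CPM in Th17, and 14 were called down without Naive replicate 2. The globin genes, which are near-identical copies, were listed at 0 counts in all 4 libraries. The part of such cells in the results below was not tested.

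**Figure D2:**
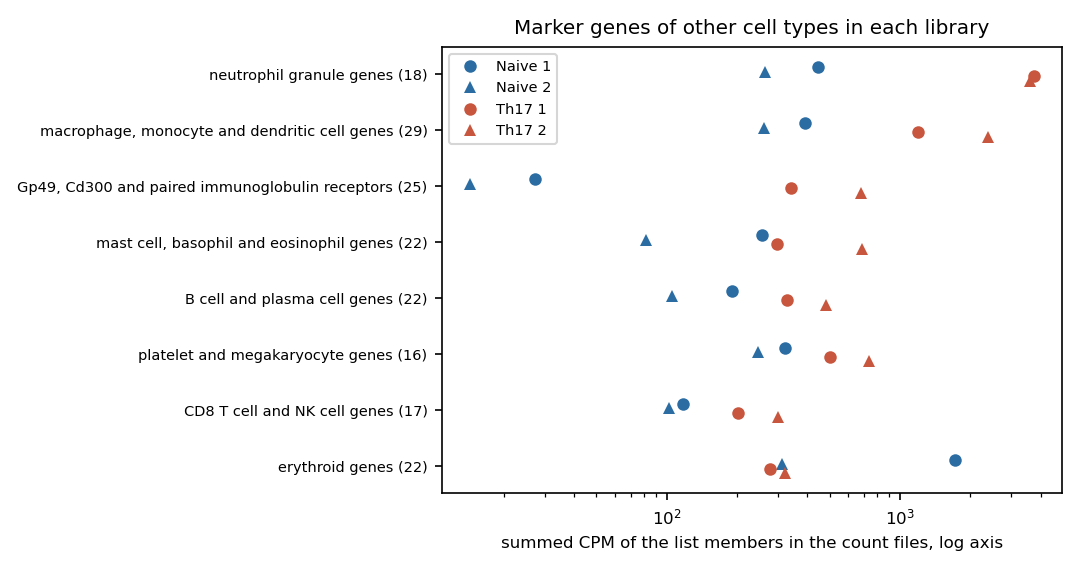
The summed CPM of each marker list (log axis, number of genes in brackets) is shown for the 2 Naive and the 2 Th17 libraries. The erythroid sum of Naive replicate 1, 1715 CPM, stands apart from the other 3 libraries, and the neutrophil sums of Th17, 3742 and 3614 CPM, lie above both Naive libraries.

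Individual markers had different patterns within the Th17 group. *S100a8*, which encodes a calcium-binding protein of neutrophils (chromosome 3, 90668978 to 90670035), stood at 0.997 and 0.156 CPM in Naive, 1218 and 1236 in Th17. *Ngp*, a neutrophil granule gene, stood at 0.302 and 0.104 CPM in Naive, 282 and 206 in Th17. Both Th17 libraries were alike for these neutrophil genes, and the Naive libraries were near 0. The macrophage genes instead differed between the Th17 libraries, with *Lyz2*, which encodes lysozyme, at 26.5 and 9.36 CPM in Naive, 236 and 825 in Th17. *Msr1*, a scavenger receptor, stood at 0.0302 and 0 CPM in Naive, 3.75 and 41.8 in Th17. *Fcer1a*, the IgE receptor chain of mast cells and basophils, stood at 0.242 and 0.0520 CPM in Naive, 11.9 and 58.3 in Th17. Replicate 2 was thus the higher Th17 library for all 3 of these genes. The MHC class II genes *H2-Aa* (2.34 and 0.26 CPM in Naive, 32.4 and 82.7 in Th17) and *H2-Ab1* (15.2 and 2.13 CPM in Naive, 94 and 147 in Th17), which antigen-presenting cells use, were called up. *Igj*, the joining chain of secreted antibody, was called down (97.1 and 28 CPM in Naive, 3.52 and 3.92 in Th17). *Mpo*, the myeloperoxidase of early granulocyte precursors, was the neutrophil gene called down (258 and 167 CPM in Naive, 72.2 and 63.5 in Th17), a call lost without Th17 replicate 1 (adjusted p = 0.0148) or Th17 replicate 2 (adjusted p = 0.0299). *Kit*, the stem cell factor receptor, was called down too (103 and 31.1 CPM in Naive, 13.6 and 12.4 in Th17).

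**Figure D3:**
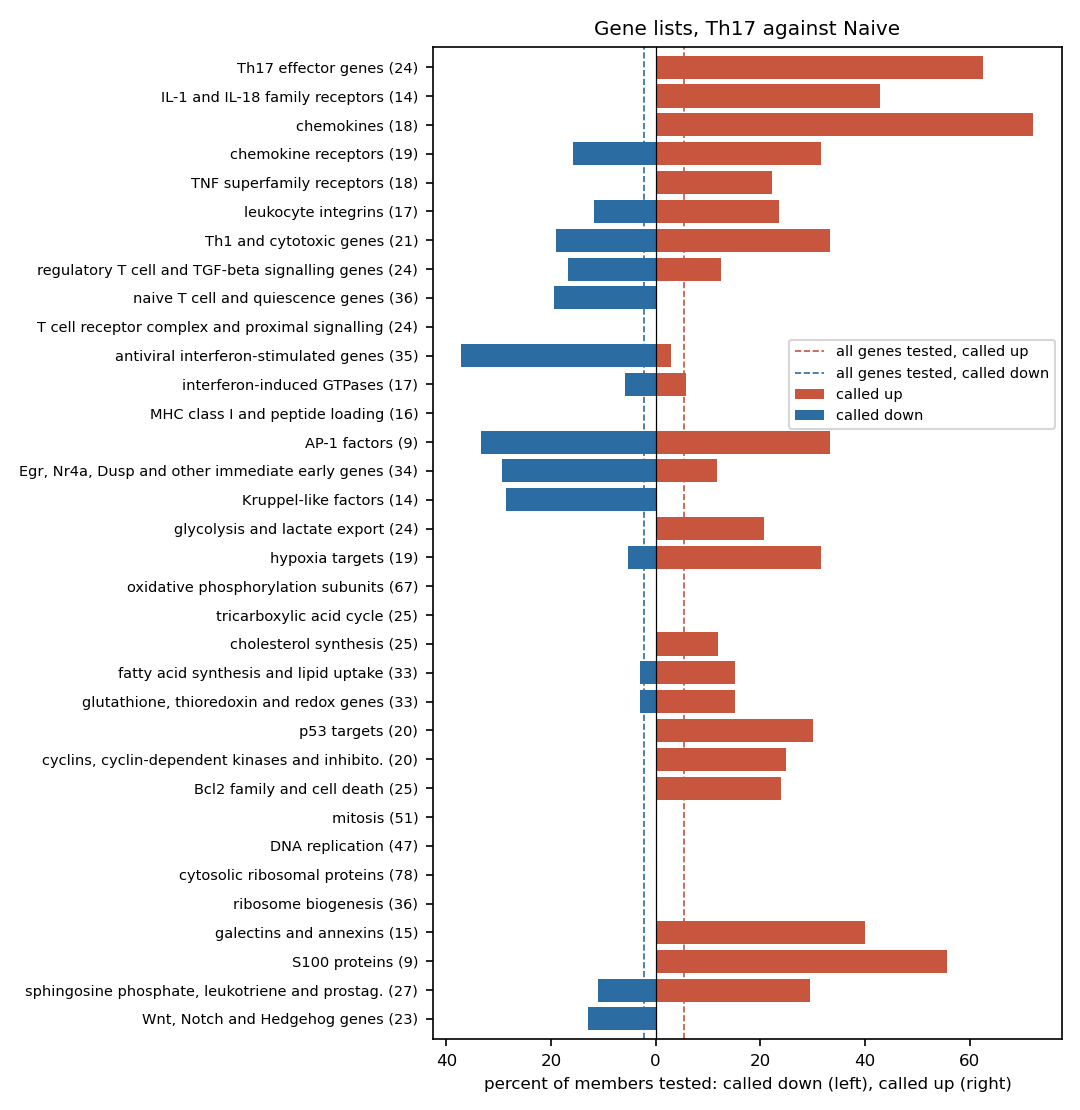
Bars give the percent of the tested members of 34 gene lists that were called down (left) or up (right) in Th17 against Naive, with the number tested in brackets, and dashed lines give the same for all genes, 2.18% and 5.38%. Chemokines (13 of 18 up) and antiviral interferon-stimulated genes (13 of 35 down) lie at the ends of the range, and the T cell receptor, mitosis and ribosomal protein lists had no call.

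The receptors through which Th17 cells sense IL-1 and IL-18 were among the families called up. Of 14 receptors and adaptors of this family 6 were called up and none down, 42.9% against 5.38% of all genes, with a median of 0.73. *Il1r2*, a decoy that binds IL-1 without signalling, stood at 1.37 and 0.572 CPM in Naive, 79 and 74.5 in Th17 (6.18 ± 0.43). *Il18r1* (47 and 54.8 CPM in Naive, 176 and 184 in Th17, 1.82 ± 0.29) and *Il18rap* (20.1 and 20.4 CPM in Naive, 101 and 92.8 in Th17, 2.26 ± 0.28), the receptor chains for IL-18, rose less and from a level already present in Naive. *Il1r2*, *Il1r1*, *Il18r1* and *Il18rap* lie in this order on chromosome 1 between 40074079 and 40551705 (GENCODE, GRCm38), though not all as direct neighbours. All 4 were called up. Also called up was *Il1rn*, the soluble IL-1 receptor antagonist, which myeloid cells make in quantity and which was higher in Th17 replicate 2 (0.0151 and 0.156 CPM in Naive, 7.72 and 23.6 in Th17).

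Other cytokine receptor families moved less. Of 9 receptors of the common gamma chain family 1 was called up and 1 down, 11.1% each, against 5.38% and 2.18% of all genes. *Il2ra*, the high-affinity IL-2 receptor chain of activated T cells, stood at 43.5 and 75.3 CPM in Naive, 522 and 327 in Th17 (2.84 ± 0.39). *Il9r*, the IL-9 receptor, stood at 7.4 and 8.22 CPM in Naive, 1.91 and 0.919 in Th17 (-2.41 ± 0.50), a call lost without Th17 replicate 2 (adjusted p = 0.0476). *Il7r*, which keeps resting T cells alive, stood at 291 and 422 CPM in Naive, 426 and 426 in Th17 and was not called. Among 18 receptors, Janus kinases and STAT factors of the IL-6 and IL-12 families, *Il23r* alone was called (0.589 and 0.156 CPM in Naive, 35.1 and 32.9 in Th17, 6.29 ± 0.52), whereas *Jak1* (669.9 and 1016 CPM in Naive, 517 and 467 in Th17) was not. When Naive replicate 1 was left out, 2 genes of these families were called up and 3 down. Of the 8 SOCS genes, which encode feedback inhibitors of such receptors, *Socs3* (83.9 and 138 CPM in Naive, 734 and 552 in Th17, 2.54 ± 0.37) and *Socs2* (8.02 and 8.74 CPM in Naive, 46.5 and 33.8 in Th17, 2.26 ± 0.32) were called up, and 4 genes were called up without Naive replicate 2. *Cish* missed the threshold (31 and 41.7 CPM in Naive, 113 and 72.4 in Th17, edgeR adjusted p = 0.0157, called without Naive replicate 2 (adjusted p = 4.27e-04) or Th17 replicate 2 (adjusted p = 0.00281)).

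Of the TNF superfamily, 4 of 18 receptors and 1 of 12 ligands tested were called up and none down. These shares are 22.2% and 8.33%, against 5.38% of all genes called up. *Tnfrsf8*, which encodes CD30, stood at 1.45 and 1.51 CPM in Naive, 84.6 and 35.5 in Th17 (5.35 ± 0.47). Its ligand gene *Tnfsf8* stood at 18.8 and 28.3 CPM in Naive, 92.1 and 109.7 in Th17 (2.10 ± 0.31). Both the receptor and its ligand were higher in each Th17 library. *Cd40*, a receptor that antigen-presenting cells use, stood at 0.106 and 0.104 CPM in Naive, 6.31 and 6.98 in Th17. Without Naive replicate 2, 3 ligands were called up in place of 1, and 1 was called down. Of the ligands 2 were called down when Naive replicate 1 was left out, and 1 by DESeq2 or with the replicate block. Of 20 inhibitory and costimulatory receptors, 3 were called up, among them *Ctla4* (29.5 and 40.8 CPM in Naive, 213 and 316 in Th17, 2.91 ± 0.34), an inhibitory receptor, and *Icos* (57.6 and 74.2 CPM in Naive, 278 and 232 in Th17, 1.95 ± 0.31), a costimulator. *Klrg1*, a marker of terminal effector cells, was the 1 called down (5.84 and 3.02 CPM in Naive, 0.324 and 0.49 in Th17), a call lost without Th17 replicate 1 (adjusted p = 0.0128), and 2 were called down without Naive replicate 2.

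Chemokine genes had the largest share of calls among the soluble factors. Of 21 listed chemokines 18 were tested, 13 were called up and none down. The median log2 fold change was 6.07, and 4.70 when the 4 genes without a count in Naive were set at the limit of detection. The list included genes that neutrophils, monocytes and platelets are known to make, and the summed level was 49.0 and 26.9 CPM in Naive, 435 and 1238 in Th17, higher in Th17 replicate 2 as the macrophage list was. *Ccl20*, the ligand of CCR6 and a Th17 product, had no count in Naive and stood at 1.48 and 1.71 CPM in Th17, at least 15.9-fold above the limit of detection over the group. *Ccl22*, a ligand of CCR4, stood at 0.0151 and 0 CPM in Naive, 34.7 and 71.6 in Th17. *Cxcl3*, which attracts neutrophils, was at 0 in Naive and at 7.75 and 41.8 CPM in Th17. *Ppbp*, a platelet chemokine, rose to 64.5 and 95.8 CPM from 0.0604 and 0 CPM.

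Receptors for chemokines changed in both directions, 6 of 19 tested called up and 3 called down, against 5.38% and 2.18% of all genes. *Ccr2* (32.4 and 26.4 CPM in Naive, 493 and 497 in Th17, 4.07 ± 0.34), a receptor for inflammatory chemokines, was level between the Th17 replicates. *Ccr9*, which directs T cells to the small intestine, fell from 10.5 and 15.3 CPM in Naive to 0.389 and 0 CPM in Th17. *Cxcr1* (0.393 and 1.04 CPM in Naive, 22.8 and 18 in Th17) and *Cxcr2* (0.619 and 0.156 CPM in Naive, 13.6 and 8.7 in Th17), receptors that neutrophils use, were called up together with *Ccr1* (0.377 and 0 CPM in Naive, 30 and 62.5 in Th17), which monocytes carry. Their rise ran beside that of the neutrophil and macrophage lists, and the part of such cells was not tested. Without Naive replicate 2, 5 receptor genes were called down in place of 3.

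Integrins, which bind matrix and vessel walls, also split, with 4 of 17 called up and 2 down. These shares are 23.5% and 11.8%, against 5.38% and 2.18% of all genes. *Itga4*, the α4 chain that T cells use to enter inflamed tissue, stood at 385 and 521 CPM in Naive, 133 and 89.2 in Th17 (-2.03 ± 0.34), a call lost without Th17 replicate 2 (adjusted p = 0.0227). *Itgae*, the αE chain that TGF-β is known to induce, rose (7.49 and 8.11 CPM in Naive, 24.2 and 24.6 in Th17, 1.65 ± 0.32), a call lost without Th17 replicate 1 (adjusted p = 0.0238) or Th17 replicate 2 (adjusted p = 0.0254). *Itga3* (3.88 and 7.64 CPM in Naive, 35 and 24.1 in Th17) and *Itgb5* (1.04 and 0.78 CPM in Naive, 24.9 and 10.2 in Th17) rose as well. *Itgam*, the αM chain of neutrophils and macrophages, rose from 4.18 and 4.94 CPM to 57.5 and 75.9 CPM. *Itgb8*, whose product activates TGF-β, fell from 1.34 and 3.38 CPM to 0.0324 and 0 CPM. Without Th17 replicate 2, 1 integrin gene was called down in place of 2.

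Genes for lipid mediators and their receptors gave 8 calls up and 3 down among 27 tested. These shares are 29.6% and 11.1%, against 5.38% and 2.18% of all genes. *Cysltr1*, the receptor for cysteinyl leukotrienes (chromosome X, 106574346 to 106603679), stood at 0.604 and 0.208 CPM in Naive, 82.1 and 88.8 in Th17 (7.51 ± 0.46, edgeR adjusted p = 5.27e-06). *Ltb4r1*, the receptor for leukotriene B4, stood at 2.11 and 1.2 CPM in Naive, 94.4 and 84.4 in Th17 (5.70 ± 0.38). Both receptors differed little between the Th17 replicates. *Alox5*, the enzyme that begins leukotriene synthesis, rose to 25.5 and 38.1 CPM from 2.26 and 0.832 CPM, and *Ptges*, a prostaglandin E synthase, to 1.93 and 2.33 CPM from 0.166 and 0.104 CPM. *Sphk1*, which makes sphingosine phosphate, was called down (66 and 6.71 CPM in Naive, 1.69 and 1.71 in Th17), and its level in Naive replicate 1 was far above replicate 2, as the erythroid genes were.

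A group called down in part was that of the antiviral interferon-stimulated genes. These genes encode proteins that detect or destroy viral RNA and are switched on by type I interferon through its receptor. Of 36 listed genes 35 were tested, 13 were called down, 37.1% against 2.18% of all genes, and 1 was called up (*Ifi204*, 0.589 and 0.728 CPM in Naive, 7.54 and 2.88 in Th17, named although outside the naming rule, a call lost without Th17 replicate 1 (adjusted p = 0.108)). The median log2 fold change was -1.03, and 31 of the 35 lay below 0. The median lay between -1.11 and -1.0 when any 1 library was left out.

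Members of the OAS and IFIT families carried the largest changes. *Oasl1*, an OAS-like sensor (chromosome 5, 114923240 to 114937915), stood at 15.2 and 8.06 CPM in Naive, 0.389 and 0.184 in Th17 (-5.20 ± 0.59, edgeR adjusted p = 2.51e-04). Its neighbour *Oasl2* stood at 10.9 and 9.57 CPM in Naive, 0.876 and 0.612 in Th17 (-3.74 ± 0.48). *Oas2*, which makes the second messenger 2′-5′ oligoadenylate, stood at 13.9 and 19.3 CPM in Naive, 1.04 and 0.306 in Th17 (-4.48 ± 0.56). Both Th17 libraries stood far below both Naive libraries for these 3 genes. *Ifit3*, which belongs to a complex that holds viral RNA, stood at 15 and 11.3 CPM in Naive, 0.941 and 0.857 in Th17 (-3.86 ± 0.45). *Rtp4*, an interferon-induced inhibitor of viral replication, stood at 38.8 and 31.7 CPM in Naive, 3.33 and 1.9 in Th17 (-3.72 ± 0.39). *Ifi44* had 1.69 and 0.988 CPM in Naive and no count in Th17, at least 11.5-fold lower, a call lost without Th17 replicate 1 (adjusted p = 0.0126). With all 6 libraries of the study in 1 model, 6 of these genes were called down.

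Outside the antiviral list, interferon-induced GTPases and MHC class I genes had few or no calls. Of 17 interferon-induced GTPases tested 1 was called up and 1 down, with a median of 0.14. *Gbp2*, a guanylate-binding protein that interferon gamma induces, stood at 44.7 and 50.5 CPM in Naive, 157 and 113 in Th17 (1.51 ± 0.30), a call lost without Th17 replicate 1 (adjusted p = 0.0456). *Mx2*, which type I interferon induces, is typed in GENCODE as a polymorphic pseudogene. It stood at 2.51 and 2.55 CPM in Naive, 0.162 and 0.245 in Th17 (-3.70 ± 0.65), a call lost without Th17 replicate 1 (log2 fold change -3.37). The list had 3 genes called down without Naive replicate 1 and 2 without Naive replicate 2, and 2 called up without Naive replicate 2 or without Th17 replicate 2. *Gbp4* (93.9 and 165 CPM in Naive, 246 and 203 in Th17) and *Igtp* (99.5 and 129 CPM in Naive, 164 and 154 in Th17) were not called. None of 16 MHC class I and peptide loading genes tested was called by edgeR, but 13 of them lay below 0, with a median of -0.36. At an unadjusted p under 0.05 6 were lower, DESeq2 called 3 down, and edgeR called 4 down without Naive replicate 1 and 2 without Naive replicate 2. *H2-K1*, a class I heavy chain, stood at 3986 and 4294 CPM in Naive, 1574 and 1435 in Th17 (-1.46 ± 0.37, edgeR adjusted p = 0.0225, called without Naive replicate 1 (adjusted p = 0.00278) or Naive replicate 2 (adjusted p = 0.00632)). *B2m*, its light chain, stood at 1662 and 1949 CPM in Naive, 989.8 and 1126 in Th17.

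Because these genes moved together, their promoters were read for the core of the interferon response element, GAAANNGAAA on either strand. RefSeq promoter windows on GRCm38, from 250 bases before to 50 bases after the gene start, were held for 10113 of the 13407 genes tested, and the first window listed for each gene was used. Of 26 antiviral genes with a window 11 held the motif, 42.3%, against 312 of all 10113 windows, 3.09%, and it was in 6 of the 10 that were called down or up. The windows of *Ifit3* (chr19:34583279-34583578, plus strand) and of *Rsad2* (chr12:26456403-26456702, minus strand), a called member that encodes viperin and was chosen after its values were seen because its window held the motif, are shown 5′ to 3′ with the motif in capitals. The capitals read as the reverse complement, and in *Ifit3* they begin at 156 and 122 bases before the gene start.

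Ifit3: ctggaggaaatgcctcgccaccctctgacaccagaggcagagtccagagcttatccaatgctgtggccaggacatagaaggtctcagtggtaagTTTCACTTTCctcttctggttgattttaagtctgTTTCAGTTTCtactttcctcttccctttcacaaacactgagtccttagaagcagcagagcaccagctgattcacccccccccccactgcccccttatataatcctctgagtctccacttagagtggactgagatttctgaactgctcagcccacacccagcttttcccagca
Rsad2: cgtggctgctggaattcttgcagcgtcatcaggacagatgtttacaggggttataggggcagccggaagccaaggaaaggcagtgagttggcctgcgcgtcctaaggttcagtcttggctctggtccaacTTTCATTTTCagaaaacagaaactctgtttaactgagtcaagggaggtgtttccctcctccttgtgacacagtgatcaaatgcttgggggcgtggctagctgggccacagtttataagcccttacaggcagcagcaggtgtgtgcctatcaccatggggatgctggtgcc

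*Rsad2* stood at 6.98 and 4.21 CPM in Naive, 0.584 and 0.551 in Th17 (-3.29 ± 0.55). A match in a window is a description of the sequence and not evidence of a bound site. The list was drawn up as interferon-stimulated genes, so the share describes the list and not the change between the groups.

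Among immediate early genes, which T cells transcribe within minutes of receptor or stress signals, more were called down than up. Of 34 such genes of the Egr, Nr4a, Dusp and related families 10 were called down, 29.4% against 2.18% of all genes, and 4 were called up, and 27 of the 34 lay below 0 with a median of -0.90. *Egr1* (79 and 112 CPM in Naive, 14.2 and 5.57 in Th17, -3.25 ± 0.43) and *Egr3* (25.4 and 47.9 CPM in Naive, 7.69 and 2.33 in Th17, -2.83 ± 0.53) encode zinc finger factors downstream of the antigen receptor. *Nr4a1*, an orphan nuclear receptor used as a reporter of receptor signalling, stood at 78.5 and 121 CPM in Naive, 22 and 8.08 in Th17 (-2.71 ± 0.45). *Dusp2*, a phosphatase that switches off MAP kinases, stood at 216 and 334 CPM in Naive, 41.5 and 51 in Th17 (-2.57 ± 0.34). *Ier3*, a stress gene, ran the other way (2.93 and 1.92 CPM in Naive, 14 and 19.6 in Th17, 2.77 ± 0.42). In Th17, replicate 1 was the higher library for *Egr1*, *Egr3* and *Nr4a1*. The number called down was 15 when Naive replicate 1 was left out and 7 when Th17 replicate 2 was. With all 6 libraries in 1 model it was 5, and with library size alone 7.

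The AP-1 factors, dimers that immediate early signals and the BATF proteins feed into, were called in both directions, 3 of 9 tested up and 3 down, with the other 3 not called. The number called up was 4 in DESeq2 and when either one of the Naive libraries or Th17 replicate 2 was left out. *Fos* (chromosome 12, 85473890 to 85477273) stood at 64.6 and 168 CPM in Naive, 3.42 and 1.71 in Th17 (-5.44 ± 0.54, edgeR adjusted p = 1.10e-04). *Fosb* stood at 16.1 and 18.3 CPM in Naive, 0.99 and 0.306 in Th17 (-4.58 ± 0.54) and *Jun* at 120.2 and 249.9 CPM in Naive, 57.2 and 38 in Th17 (-1.95 ± 0.39), a call lost without Th17 replicate 2 (adjusted p = 0.0135). These 3 were lower in both Th17 libraries. *Batf*, which opens chromatin at Th17 genes together with IRF4, stood at 42.8 and 40.8 CPM in Naive, 159 and 185 in Th17 (2.04 ± 0.29). *Batf3* stood at 0.257 and 0.156 CPM in Naive, 17.3 and 13.7 in Th17 (6.11 ± 0.52). *Atf3*, a stress-induced member, rose to 3.42 and 10.8 CPM from 0.0604 and 0.0520 CPM.

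**Figure D4:**
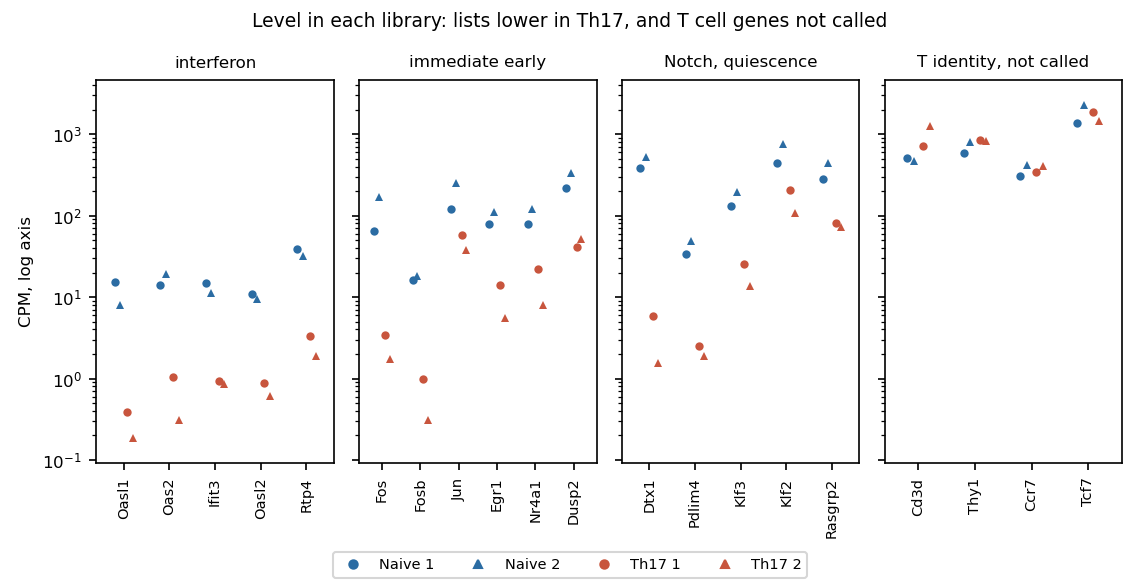
The level of each gene in CPM (log axis) is shown in each library, with Naive in blue and Th17 in orange, circles for replicate 1 and triangles for replicate 2. The interferon, immediate early, Notch and quiescence genes shown were picked from those called down. They lie lower in both Th17 libraries. Genes of the same lists that were called up, such as *Ier3*, are not shown. The T cell genes in the right panel, *Cd3d*, *Thy1*, *Ccr7* and *Tcf7*, were not called.

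Of the genes of the naive and quiescent T cell state, 7 of 36 tested were called down and none up, 19.4% against 2.18%. *Pdlim4*, a LIM domain adaptor, stood at 33.6 and 48.9 CPM in Naive, 2.51 and 1.9 in Th17 (-4.20 ± 0.38). *Dapl1* stood at 44 and 51.8 CPM in Naive, 7.23 and 6.98 in Th17 (-2.75 ± 0.30). *Tsc22d3*, a glucocorticoid-induced gene that encodes GILZ, stood at 233 and 313 CPM in Naive, 43.4 and 70.4 in Th17 (-2.26 ± 0.35). *Rasgrp2*, an exchange factor for the integrin-activating GTPase Rap1, stood at 279 and 446 CPM in Naive, 80.7 and 71.9 in Th17 (-2.25 ± 0.34). The Krüppel-like factors *Klf2*, which maintains quiescence and homing receptors, and *Klf3* stood at 444 and 751 CPM in Naive, 205 and 108 in Th17 (-1.93 ± 0.41) and at 133 and 192 CPM in Naive, 25.6 and 13.7 in Th17 (-3.03 ± 0.38). The call of *Klf2* was lost without Th17 replicate 2 (adjusted p = 0.0718). Each of these 6 genes, picked from those called, was lower in both Th17 libraries, as were 31.5% of all genes. *Ccr7* and *S1pr1*, which belong to the same resting state, were not called. Over all Krüppel-like factors 4 of 14 were called down and none up, with *Klf1*, an erythroid factor, among the 4 (100.3 and 17 CPM in Naive, 1.09 and 0.796 in Th17). The number was 6 when Naive replicate 2 was left out and 2 when Th17 replicate 2 was.

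A few Notch and Wnt pathway genes were lower as well. Of 26 listed genes 23 were tested, and 3 were called down, 13% against 2.18% of all genes, and none up. Of the 23, 19 lay below 0, with a median of -0.92. *Dtx1*, a Notch target that encodes an E3 ligase and is linked to T cell anergy (chromosome 5, 120680202 to 120711927), stood at 382 and 518 CPM in Naive, 5.79 and 1.53 in Th17 (-6.87 ± 0.60, edgeR adjusted p = 4.68e-05). It was among the best expressed genes called down, and the Naive replicates were alike. *Hes1*, a Notch-induced repressor, stood at 5.56 and 1.77 CPM in Naive, 0.178 and 0.49 in Th17, a call lost without Naive replicate 1 (adjusted p = 0.0241) or Th17 replicate 1 (adjusted p = 0.0311). The number called down was 9 without Naive replicate 1, 5 without Naive replicate 2 and 2 without Th17 replicate 1.

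Several genes known from other T cell lineages were called down, here taken from more than 1 list. *Gata3*, which directs Th2 cells, stood at 59.1 and 86.5 CPM in Naive, 19.5 and 9.25 in Th17 (-2.33 ± 0.39). *Tbx21*, which encodes the Th1 factor T-bet, stood at 24 and 21.9 CPM in Naive, 4.85 and 2.94 in Th17 (-2.54 ± 0.38). *Eomes*, its relative in memory CD8 T cells, stood at 17.9 and 24.5 CPM in Naive, 1.18 and 0.735 in Th17 (-4.41 ± 0.45). *Foxp3*, the factor of regulatory T cells, stood at 40.3 and 73.4 CPM in Naive, 20.3 and 13.8 in Th17 (-1.73 ± 0.36), a call lost without Th17 replicate 2 (adjusted p = 0.028). *Ikzf2*, which encodes Helios, stood at 63 and 103 CPM in Naive, 15.4 and 10.7 in Th17 (-2.66 ± 0.35). *Nrp1*, a surface protein of thymic regulatory T cells, stood at 29.8 and 40.6 CPM in Naive, 7.25 and 9.61 in Th17 (-2.07 ± 0.33). All 6 genes, picked from those called, were lower in both Th17 libraries, as were 31.5% of all genes. Over the list of regulatory T cell and TGF-β genes 4 of 24 were called down and 3 up, with *Ctla4*, *Il2ra* and *Itgae* the 3 that rose, and 8 were called down without Naive replicate 1. Of 22 Ikaros, Runx, Gata and Ets factors 3 were called down and none up, the third being *Ets2* (36.1 and 56.8 CPM in Naive, 11.2 and 8.88 in Th17), and 5 were called down when either one of the Naive libraries was left out. *Id2*, an inhibitor of E proteins, rose (78.4 and 78.6 CPM in Naive, 316 and 332 in Th17, 2.05 ± 0.30), as did *Id1* at a lower level (0.725 and 0.26 CPM in Naive, 5.14 and 6.19 in Th17).

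Genes of Th1 and cytotoxic cells moved in both directions. Of 21 such genes 7 were called up and 4 down, with *Tbx21* and *Eomes* among the 4. In all, 11 lay above 0 and 10 below, with a median of 0.29. *Ifng*, the cytokine whose effect the culture antibodies block, stood at 4.68 and 4.78 CPM in Naive, 68.5 and 52.7 in Th17 (3.68 ± 0.32). The granzyme genes *Gzmb* (12.1 and 4.94 CPM in Naive, 402 and 360.3 in Th17, 5.46 ± 0.47) and *Gzmc* (1.19 and 0.52 CPM in Naive, 17.8 and 17.1 in Th17, 4.26 ± 0.49), serine proteases that lie in one cluster on chromosome 14, and *Gzma* (5.03 and 1.98 CPM in Naive, 51 and 31 in Th17) were called up. Natural killer cell genes were called in both directions, *Klrc1* up (4.47 and 2.65 CPM in Naive, 25.5 and 42.4 in Th17) and *Klrb1c* down (17.9 and 11.8 CPM in Naive, 1.01 and 1.29 in Th17), with 5 of 15 CD8 and natural killer genes up and 2 down. *Il13*, a Th2 cytokine also made by mast cells and basophils, rose to 24.5 and 22.4 CPM from 0.287 and 0.104 CPM, and the part of other cells in it was not tested. In the pathway of the aryl hydrocarbon receptor, which senses tryptophan products and supports IL-22, 3 of 10 genes were called up: *Il22* (0.332 and 0.156 CPM in Naive, 674 and 699 in Th17), *Ahrr*, the receptor's repressor (0.0755 and 0.104 CPM in Naive, 10.1 and 8.63 in Th17), and *Cyp1b1*, a target enzyme at 0 counts in Naive and 3.11 and 1.35 CPM in Th17. In the absence of Naive replicate 1, 6 were called up.

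Of the glycolysis genes, which split glucose to lactate in dividing effector cells, a part was higher in Th17. Of 24 tested 5 were called up, 20.8% against 5.38%, none was called down, 18 lay above 0, and the median was 0.93. *Slc16a3*, which exports lactate (chromosome 11, 120948480 to 120960868), stood at 11.1 and 8.42 CPM in Naive, 174 and 126 in Th17 (3.93 ± 0.34, edgeR adjusted p = 4.01e-05). *Hk2*, the inducible hexokinase of the first step, stood at 9.54 and 6.29 CPM in Naive, 42.6 and 25.8 in Th17 (2.10 ± 0.37), a call lost without Th17 replicate 1 (adjusted p = 0.02). *Aldoc*, an aldolase, stood at 2.55 and 2.08 CPM in Naive, 27.6 and 41.2 in Th17 (3.88 ± 0.38). *Pgk1*, which makes the first ATP of the pathway, stood at 274 and 204 CPM in Naive, 1077 and 1132 in Th17 (2.21 ± 0.34). *Pgam1*, the mutase of the following step, stood at 94.2 and 74.6 CPM in Naive, 329 and 326 in Th17 (1.96 ± 0.31). In all 5 both Th17 libraries lay above both Naive libraries. DESeq2 called 11 genes of the list up.

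The hypoxia list, targets of the HIF transcription factors, had 6 of 19 tested called up and 1 down, with a median of 1.33. *Hif1a* itself, which encodes the oxygen-regulated factor that favours Th17 cells, stood at 95.4 and 132 CPM in Naive, 549 and 537 in Th17 (2.26 ± 0.33). *Bnip3*, a mitophagy receptor, stood at 6.37 and 5.04 CPM in Naive, 114 and 165 in Th17 (4.6 ± 0.35). *Egln3*, a prolyl hydroxylase that marks HIF for decay, stood at 8.11 and 9.0 CPM in Naive, 171 and 131 in Th17 (4.14 ± 0.32). *Ankrd37* stood at 3.07 and 3.22 CPM in Naive, 13.3 and 14.1 in Th17 (2.13 ± 0.39). The replicates of each group were alike in these genes. *Epas1*, which encodes the related factor HIF-2α, was called down (8.91 and 14.5 CPM in Naive, 2.3 and 1.29 in Th17, -2.66 ± 0.48), so that the paired factors moved in opposite directions. With Naive replicate 1 left out, 9 genes were called up.

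The letters ACGTG, the core of the hypoxia response element, were in the promoter windows of 11 of 15 hypoxia genes with a window (73.3%), 12 of 23 glycolysis genes (52.2%) and 25.7% of all 10113 windows, counting both strands. They were in all 5 called genes with a window in each of the 2 lists. The hypoxia list was drawn up as HIF targets, so its share describes the list and not the change between the groups. A match is not evidence of a bound site. The windows of *Bnip3* (chr7:138909457-138909756, minus strand) and *Egln3* (chr12:54203825-54204124, minus strand), the 2 hypoxia genes with the largest positive changes, are shown with the motif in capitals. In *Bnip3* the motif is on both strands of one palindrome that begins 108 bases before the gene start, and in *Egln3* it begins 229 bases before it.

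Bnip3: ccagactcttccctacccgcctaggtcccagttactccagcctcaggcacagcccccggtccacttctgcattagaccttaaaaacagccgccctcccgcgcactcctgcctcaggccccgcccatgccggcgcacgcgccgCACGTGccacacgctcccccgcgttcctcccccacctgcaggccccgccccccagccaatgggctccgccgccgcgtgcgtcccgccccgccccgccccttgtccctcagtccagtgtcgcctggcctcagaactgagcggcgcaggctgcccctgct
Egln3: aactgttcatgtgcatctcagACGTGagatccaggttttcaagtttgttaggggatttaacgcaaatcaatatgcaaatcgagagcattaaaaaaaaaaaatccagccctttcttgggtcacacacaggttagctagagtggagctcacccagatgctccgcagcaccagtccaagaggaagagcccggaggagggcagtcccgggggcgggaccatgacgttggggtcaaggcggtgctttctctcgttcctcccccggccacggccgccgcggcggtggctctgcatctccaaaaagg

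Mitochondrial lists had no gene called by edgeR in either direction. Of 67 oxidative phosphorylation subunits none was called by edgeR, 59 lay above 0, 19 of them at an unadjusted p under 0.05, and the median was 0.56. *Atp5b*, a subunit of ATP synthase, stood at 1439 and 876 CPM in Naive, 991 and 1247 in Th17, and *Cox4i1*, of cytochrome oxidase, at 596 and 345 CPM in Naive, 649 and 874 in Th17. DESeq2 called 1 of the 67 up, and without Naive replicate 1 22 were called up with a median of 1.06. Of 25 tricarboxylic acid cycle genes edgeR called none, with a median of 0.05, 2 higher and 4 lower at an unadjusted p under 0.05, and DESeq2 called 1 up and 1 down. Leaving out Naive replicate 1 gave 2 called up, and leaving out Naive replicate 2 gave 1 called down. *Cs*, which encodes citrate synthase, stood at 218 and 193 CPM in Naive, 186 and 184 in Th17. None of 76 mitochondrial ribosomal protein genes was called by edgeR either (median 0.38, 8 higher at an unadjusted p under 0.05, 1 called up by DESeq2), but 16 were called up without Naive replicate 1 and 1 down without Naive replicate 2.

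Cholesterol synthesis genes lay mostly above 0, by a modest amount. Of 25 genes 23 lay above 0 with a median of 0.84, 3 were called up, 12% against 5.38%, and none down. *Idi1*, an isomerase of the mevalonate pathway, stood at 11.6 and 7.28 CPM in Naive, 38.9 and 58.2 in Th17 (2.35 ± 0.35). *Msmo1*, a sterol oxidase, stood at 17.9 and 14.5 CPM in Naive, 46.5 and 66.4 in Th17 (1.80 ± 0.31). *Cyp51*, a demethylase of lanosterol, stood at 28.4 and 23.5 CPM in Naive, 59.6 and 83.5 in Th17 (1.46 ± 0.30). The call of *Msmo1* was lost without Th17 replicate 2 (adjusted p = 0.0144), and that of *Cyp51* was lost without Th17 replicate 2 (adjusted p = 0.0708). Intermediates of this late part of the pathway are known as ligands of the Th17 nuclear receptor RORγt. The median was between 0.79 and 0.99 without any 1 library, while the number called was 8 when Naive replicate 1 was left out and 1 when Th17 replicate 2 was. The CCAAT box, bound by the factor NF-Y beside sterol-responsive sites, was in 15 of 17 windows of this list (88.2%) and in 38.6% of all windows on either strand. This share too describes the list, and a match is not evidence of a bound site. The windows of *Idi1* (chr13:8885356-8885655, plus strand) and *Cyp51* (chr5:4104648-4104947, minus strand) are shown with that motif in capitals, in *Idi1* as its reverse complement.

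Idi1: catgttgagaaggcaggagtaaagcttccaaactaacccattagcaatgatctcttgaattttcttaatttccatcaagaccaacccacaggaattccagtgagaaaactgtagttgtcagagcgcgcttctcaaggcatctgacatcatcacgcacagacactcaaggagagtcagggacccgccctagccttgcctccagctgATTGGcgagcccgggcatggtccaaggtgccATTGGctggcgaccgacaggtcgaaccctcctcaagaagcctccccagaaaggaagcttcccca
Cyp51: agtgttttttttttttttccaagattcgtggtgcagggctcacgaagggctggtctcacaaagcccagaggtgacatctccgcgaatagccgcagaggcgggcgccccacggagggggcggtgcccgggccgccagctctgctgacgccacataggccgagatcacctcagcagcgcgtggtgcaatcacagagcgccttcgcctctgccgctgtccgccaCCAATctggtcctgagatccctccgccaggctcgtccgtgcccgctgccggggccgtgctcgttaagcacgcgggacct

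Genes of fatty acid synthesis and lipid uptake gave 5 calls up and 1 down among 33, with a median of 0.03. *Fabp5*, a fatty acid carrier of T cells, stood at 23.1 and 9.31 CPM in Naive, 339 and 226 in Th17 (4.11 ± 0.47). *Elovl6*, which lengthens palmitate, stood at 18.6 and 15.5 CPM in Naive, 75.3 and 75.3 in Th17 (2.14 ± 0.28). *Abca1*, which exports cholesterol, was lower (26.2 and 34.1 CPM in Naive, 5.6 and 8.27 in Th17, -2.13 ± 0.35). *Plin2*, which coats lipid droplets, rose (34.6 and 14.5 CPM in Naive, 104 and 89.2 in Th17), as did *Lpl*, a lipase of macrophages (0.634 and 0.208 CPM in Naive, 19.8 and 166 in Th17), and *Fabp4* (0.0302 and 0 CPM in Naive, 16.2 and 3.25 in Th17), both with a large spread between the Th17 replicates. Leaving out Naive replicate 1 gave 10 genes called up, and 2 were called down when either one of the Naive libraries was left out.

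**Figure D5:**
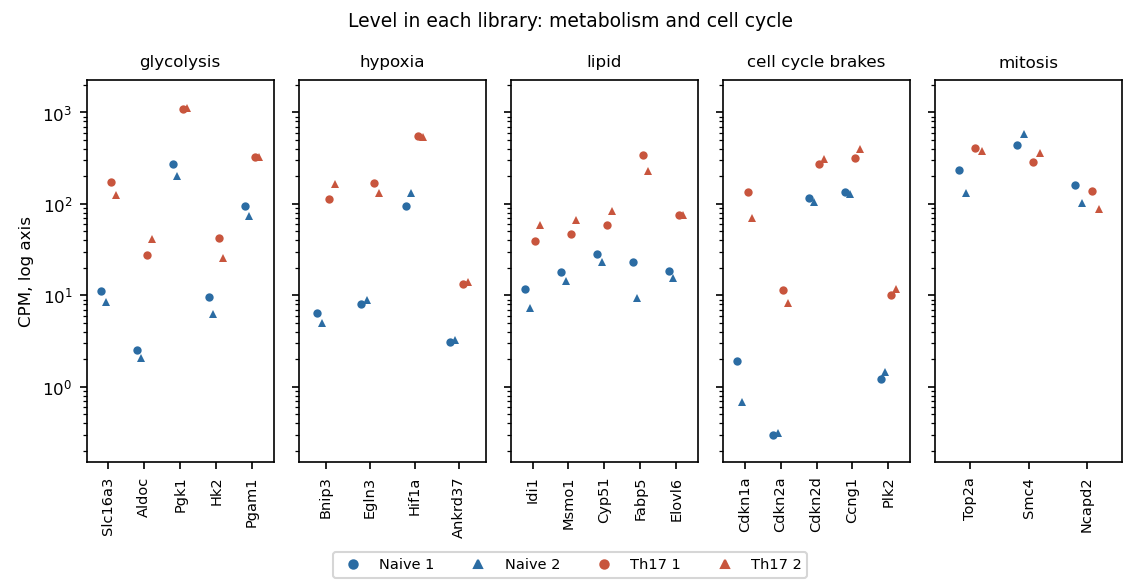
The level of each gene in CPM (log axis) is shown in each library, with Naive in blue and Th17 in orange, circles for replicate 1 and triangles for replicate 2. The glycolysis, hypoxia, lipid, cyclin-dependent kinase inhibitor and p53 target genes shown were picked from those called up. They lie higher in both Th17 libraries. *Epas1* and *Abca1*, called down in the hypoxia and lipid lists, are not shown. The mitosis genes *Top2a*, *Smc4* and *Ncapd2* were not called.

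Of 20 cyclins, cyclin-dependent kinases and inhibitors 5 were called up, none was called down and 15 were not called. With the replicate block edgeR called 3 up, and *Cdkn2d* was not among them. *Cdkn1a*, which encodes the inhibitor p21 (chromosome 17, 29090976 to 29100727), stood at 1.93 and 0.676 CPM in Naive, 136 and 70.4 in Th17 (6.19 ± 0.54, edgeR adjusted p = 4.28e-05). *Cdkn2a* (0.302 and 0.312 CPM in Naive, 11.4 and 8.33 in Th17, 5.0 ± 0.53) and its neighbour on chromosome 4 *Cdkn2b* (0.257 and 0 CPM in Naive, 6.23 and 5.39 in Th17, 5.09 ± 0.81) encode the INK4 and ARF inhibitors, and *Cdkn2d*, a further INK4 gene, stood at 116 and 104 CPM in Naive, 273 and 307 in Th17 (1.40 ± 0.30), a call lost without Naive replicate 2 (adjusted p = 0.0114), Th17 replicate 1 (adjusted p = 0.0235) or Th17 replicate 2 (adjusted p = 0.0526). In all 4 genes, picked from those called, both Th17 libraries lay above both Naive libraries, as in 34.3% of all genes. Of 20 p53 targets 6 were called up and none down, with a median of 0.86, among them *Plk2* (1.21 and 1.46 CPM in Naive, 10.1 and 11.6 in Th17, 3.04 ± 0.44), *Pmaip1*, which encodes the death inducer NOXA (2.31 and 3.02 CPM in Naive, 21.3 and 21.5 in Th17, 3.02 ± 0.38), and *Ccng1* (133 and 130.1 CPM in Naive, 315 and 395 in Th17), a call lost without Th17 replicate 1 (adjusted p = 0.0158) or Th17 replicate 2 (adjusted p = 0.0742). Leaving out Th17 replicate 2 left 3 of the 5 cell cycle genes called, and leaving out Th17 replicate 1 left 4 of the 6 p53 targets.

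The number of mitosis genes called depended on the Naive library and on the model. Of 51 genes edgeR called none, 45 lay above 0, 16 of them at an unadjusted p under 0.05, the median was 0.57, and the summed level was 3204 and 1931 CPM in Naive, 3739 and 3368 in Th17. Transcripts of division were therefore present in the Naive libraries at a level of the same order. *Top2a*, the topoisomerase of dividing cells, stood at 237 and 131 CPM in Naive, 405 and 382 in Th17 (edgeR adjusted p = 0.0535, called without Naive replicate 1 (adjusted p = 0.00252)). *Smc4*, a condensin subunit, stood at 446 and 583 CPM in Naive, 291 and 357 in Th17, and *Ncapd2*, a second condensin subunit, at 163 and 103 CPM in Naive, 139 and 88.7 in Th17. Without Naive replicate 1 30 of the 51 were called up with a median of 1.32, and without Naive replicate 2 none was, with a median of 0.16. Naive replicate 1 was also the library with the high erythroid sum, and the part of that in this difference was not tested. With the replicate block edgeR called 5 mitosis genes up and DESeq2 3, and with no filter on low counts edgeR called 10. DESeq2 called 2 of the mitosis genes up, and edgeR 5 at an adjusted p-value under 0.05. None of 47 DNA replication genes was called by edgeR (median -0.05, 3 higher and 6 lower at an unadjusted p under 0.05, 2 called up and 2 down by DESeq2), with *Pcna*, the sliding clamp, at 444 and 229 CPM in Naive, 492 and 564 in Th17, but 11 were called up without Naive replicate 1 and 5 down without Naive replicate 2.

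Of 25 genes of the BCL2 family and the cell death machinery tested 6 were called up and none down. *Bik* (0.966 and 1.4 CPM in Naive, 9.07 and 10.2 in Th17, 3.04 ± 0.47), like *Pmaip1*, encodes a protein that promotes death, whereas *Bcl2a1d* (8.89 and 8.48 CPM in Naive, 32.6 and 59 in Th17, 2.39 ± 0.35) and *Bcl2a1a* (0.0604 and 0 CPM in Naive, 4.48 and 17.3 in Th17) encode survival proteins of myeloid and activated lymphoid cells. The copies of the *Bcl2a1* family are near-identical, so reads may be shared between them. *Casp4*, an inflammatory caspase, stood at 5.63 and 4.42 CPM in Naive, 24.1 and 21.1 in Th17.

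Ribosome genes gave no call. Of 78 cytosolic ribosomal protein genes tested 74 lay above 0 with a median of 0.50, 3 of them at an unadjusted p under 0.05, and none was called by edgeR or DESeq2. Leaving out Naive replicate 1 gave 1 called up, and the summed level ranged from 110650 to 156750 CPM in Naive and from 155450 to 222730 CPM in Th17, so the groups overlapped. *Rplp0* stood at 5525 and 4377 CPM in Naive, 5250.2 and 8187 in Th17. The 36 ribosome biogenesis genes, which MYC is known to drive, had a median of -0.34 with 24 below 0, 9 of them at an unadjusted p under 0.05, again with none called by edgeR, although 4 were called down without Naive replicate 2, 2 down and 1 up without Naive replicate 1, and DESeq2 called 2 down. *Ncl*, which encodes nucleolin, stood at 945 and 639.8 CPM in Naive, 482 and 403 in Th17, and *Myc* at 178 and 144 CPM in Naive, 89.3 and 80.8 in Th17 (-0.92 ± 0.29, edgeR adjusted p = 0.0479). Of 34 proteasome genes 31 lay above 0 with a median of 0.57, 15 of them at an unadjusted p under 0.05, and none was called by edgeR, but DESeq2 called 1 up and 5 were called up without Naive replicate 1.

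Galectins and annexins, which bind sugars and membranes, gave 6 calls up among 15 tested and none down, 40% against 5.38%. *Lgals1*, a galectin of activated T cells, stood at 149.7 and 117 CPM in Naive, 973 and 1316 in Th17 (3.10 ± 0.37). *Lgals3* stood at 14.4 and 5.46 CPM in Naive, 94.6 and 205 in Th17 (3.89 ± 0.52). *Anxa2* stood at 55.2 and 38.4 CPM in Naive, 223 and 251 in Th17 (2.34 ± 0.32) and *Anxa1*, which limits inflammation, at 10.9 and 4.68 CPM in Naive, 124 and 224 in Th17 (4.45 ± 0.48). *Lgals3* and *Anxa1* are abundant in macrophages and were higher in Th17 replicate 2. Of 9 S100 genes tested 5 were called up, among them *S100a4* (25.1 and 12.5 CPM in Naive, 124 and 157 in Th17) and *S100a6* (32.8 and 18.1 CPM in Naive, 191 and 198 in Th17), which activated T cells are known to express, beside the neutrophil genes *S100a8* and *S100a9*.

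Among genes of redox defence 5 of 33 were called up and 1 down. *Srxn1*, a sulfiredoxin that NRF2 controls, stood at 2.55 and 1.14 CPM in Naive, 22 and 23.1 in Th17 (3.56 ± 0.45). *Gstt1*, a glutathione transferase, stood at 0.257 and 0.104 CPM in Naive, 7.04 and 11.6 in Th17 (5.49 ± 0.62). *Hmox1*, which degrades heme, stood at 1.18 and 2.29 CPM in Naive, 9.07 and 19.8 in Th17. *Slc7a11*, which imports cystine, rose to 3.76 and 22.2 CPM from 0.211 and 0.156 CPM as the 1 of 15 amino acid transporters called up. *Slc43a1*, a carrier of large neutral amino acids, was the 1 called down (19.3 and 6.55 CPM in Naive, 1.95 and 1.1 in Th17), with 2 down without Naive replicate 2. *Gsta4* fell (12.1 and 5.62 CPM in Naive, 0.795 and 1.1 in Th17). Of the redox genes 13 were called up without Naive replicate 1. Of 15 iron and metal genes 2 were called up, *Lcn2*, an iron-binding neutrophil protein (0.166 and 0.0520 CPM in Naive, 125 and 93 in Th17), and *Slc11a1*, a phagocyte metal transporter (0.0755 and 0.0520 CPM in Naive, 3.08 and 5.02 in Th17), and without Naive replicate 1, 6.

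Single members stood out in families that otherwise moved little. Of 36 chromatin regulators only *Tet1*, a methylcytosine dioxygenase (chromosome 10, 62804570 to 62908996), was called, at 13.7 and 27.9 CPM in Naive, 1.36 and 1.41 in Th17 (-3.91 ± 0.47, edgeR adjusted p = 3.43e-04), although 7 of the 36 were called down without Naive replicate 1, 4 without Naive replicate 2 and 3 without Th17 replicate 1, and DESeq2 called 5 down. Of 15 clock genes *Bhlhe40*, a repressor that effector T cells need for cytokine production (chromosome 6, 108660629 to 108666925), stood at 9.01 and 8.84 CPM in Naive, 123 and 124 in Th17 (3.79 ± 0.30, edgeR adjusted p = 2.74e-05). *Nfil3*, a further clock repressor, stood at 4.76 and 4.47 CPM in Naive, 39.6 and 26.5 in Th17 (2.84 ± 0.35). *Per2*, a core clock gene, stood at 13.1 and 10.1 CPM in Naive, 2.5 and 0.98 in Th17 (-2.68 ± 0.51), a call lost without Th17 replicate 2 (adjusted p = 0.0119). Without Naive replicate 1 and 2, 3 and 2 clock genes were called down. Of 7 Ly6 genes tested *Ly6a*, which encodes Sca-1, was called up (91.7 and 72.9 CPM in Naive, 554 and 546 in Th17, 2.74 ± 0.33). Of 8 Schlafen genes *Slfn5* (93.7 and 118 CPM in Naive, 17.3 and 21.5 in Th17, -2.45 ± 0.30) and *Slfn8* (58.2 and 90.7 CPM in Naive, 26.9 and 20.3 in Th17, a call lost without Th17 replicate 2 (adjusted p = 0.0281)) were called down and *Slfn4*, a myeloid gene, up (0.0453 and 0.26 CPM in Naive, 3.03 and 1.41 in Th17, a call lost without Th17 replicate 1 (adjusted p = 0.0662)).

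Receptors and enzymes at the cell surface also changed. Of 23 purinergic receptors and potassium channels 5 were called up and 3 down, 21.7% and 13% against 5.38% and 2.18% of all genes. For the 19 glycosyltransferases described below the shares were 15.8% and 10.5%. *Adora2b*, a receptor for adenosine, rose to 4.72 and 7.16 CPM from 0.181 and 0.0520 CPM, and *Kcna2*, a voltage-gated potassium channel, fell (1.72 and 3.95 CPM in Naive, 0.292 and 0.184 in Th17), a call lost without Th17 replicate 1 (adjusted p = 0.014) or Th17 replicate 2 (adjusted p = 0.0125). Leaving out Naive replicate 1 gave 10 called up and 6 down, and without Th17 replicate 2 1 was called down. *Gpr171*, an inhibitory receptor, stood at 22.8 and 24.4 CPM in Naive, 101 and 156 in Th17 (2.45 ± 0.32). *Rgs1*, which dampens chemokine receptors, rose (14.7 and 23.9 CPM in Naive, 85.8 and 65.7 in Th17, 1.98 ± 0.33) and *Rgs3* fell (77.2 and 101 CPM in Naive, 32.1 and 29.1 in Th17, -1.54 ± 0.29), a call lost without Th17 replicate 1 (adjusted p = 0.0157) or Th17 replicate 2 (adjusted p = 0.0266). Of 19 glycosyltransferases 3 were called up, among them *Gcnt2* (4.61 and 1.82 CPM in Naive, 53.4 and 58 in Th17) and *Fut7*, which builds selectin ligands (5.66 and 3.02 CPM in Naive, 29.9 and 27 in Th17, 2.69 ± 0.39), and 2 down, among them *Galnt10* (243 and 321 CPM in Naive, 84.3 and 66.9 in Th17), a call lost without Th17 replicate 2 (adjusted p = 0.0159). There were 4 called up and 4 down without Naive replicate 1, 1 down without Th17 replicate 1 and 0 down without Th17 replicate 2.

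Over all genes with more than 3 counts in each library and no overlap between groups, the 10 largest positive changes belonged to *Ccl6* (8.65), *Chil3* (7.62), *Lpl*, *Cysltr1*, *Gp49a* (7.44), *Lilrb4* (7.36), *B3galt2* (6.74), *Stfa3* (6.72), *Enpp2* (6.19) and *Cdkn1a*. *Chil3*, a chitinase-like protein of alternatively activated macrophages and neutrophils, stood at 1.53 and 0.52 CPM in Naive, 219 and 225 in Th17. *Enpp2*, which encodes autotaxin, a maker of lysophosphatidic acid, stood at 0.196 and 0.208 CPM in Naive, 19.3 and 10.3 in Th17. *Gp49a* and *Lilrb4* are near-identical genes, so counts may be shared between them. The 10 largest negative changes belonged to *Car1* (-9.43), *Aqp1* (-8.97), *Ces2g* (-7.48), *Dtx1*, *Abcb4* (-6.77), *Atp1b2* (-6.66), *Cldn13* (-6.05, a call lost without Naive replicate 1 (adjusted p = 0.0347)), *Gm15915* (-6.01), *Klf1* (-5.91) and *Grb10* (-5.76). *Car1*, the carbonic anhydrase of red cells, stood at 476 and 90.1 CPM in Naive, 0.341 and 0.551 in Th17, and *Aqp1*, their water channel, at 296 and 40.9 CPM in Naive, 0.373 and 0.245 in Th17. With the exception of *Dtx1*, these genes were higher in Naive replicate 1 than in replicate 2 by the pattern of the erythroid list. Over all 292 genes called down, 70 were more than 3-fold higher in Naive replicate 1 than in replicate 2 and 0 the other way, and over the 721 called up 48 were more than 3-fold higher in Th17 replicate 2 and 10 in Th17 replicate 1.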

How the data were processed

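Per the labels, polyadenylated RNA was captured. Per the authors' methods, paired reads were aligned to mm10 with HISAT2 (v2.2.1), PCR duplicates were taken out, and genes were counted with HTSeq (v0.13.5). The supplementary code shows no removal of duplicates, so the counts may hold them. The deposited files hold these whole-number counts, unnormalized, for 24223 gene symbols. The methods name default HTSeq settings and the supplementary code a reverse-stranded one, so reads of overlapping or antisense genes may be shared, as may those of near-identical genes. The 2 Naive and 2 Th17 samples, grouped by the labels, were compared in edgeR 4.0.16 under R 4.3.3 (filterByExpr by group, TMM, glmQLFit and glmQLFTest, cell type as the only term), with Benjamini-Hochberg adjustment over the 13407 genes tested. The thresholds, 0.01 and a log2 fold change of 1, are those of the study. SE is the absolute log2 fold change divided by the square root of F. The p-values measure the spread between these samples, since the mice behind each are not named, and 2 against 2 is too few for an exact permutation test to reach 0.05. Counting limits cover counting error only.

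The comparison, the 75 gene lists (1684 genes) and the naming rule were chosen with earlier results of these data known, and no test was made over a list. Named were the 10 largest called changes in each direction among genes above 3 counts in each library whose groups did not overlap, up to 6 called members of each list (and up to 3 well expressed others where fewer than 3 were called), the marker genes, and up to 5 highly expressed markers of each other cell type. Some genes that meet the rule are not reported here. Alternatives were DESeq2 1.42.0, RLE size factors, library size alone, other filters, all 6 libraries, a replicate block, a looser threshold of 0.05, testing against a 2-fold change, thinning to the smallest library, and leaving out each library. The model was tested on simulated data. Gene coordinates are from GENCODE vM21 (GRCm38, also called mm10) and promoter windows from RefSeq (GRCm38.p6).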

Additional observations from a re-analysis of the deposited data

How the results depend on the processing

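Against 721 genes called up and 292 called down, the up and down counts were 1315 and 918 with no filter on low counts, 1425 and 908 at an adjusted p-value under 0.05, and 453 and 140 in the test against a fold change of 2. DESeq2 called 1044 up and 710 down, library size alone gave 521 and 189, all 6 libraries in 1 model gave 545 and 194, and at least 10 counts in every library gave 415 and 218. RLE size factors (732 and 317) and thinning (734 and 318) stayed within 1.5 times of both counts. Leaving out 1 library gave between 687 and 1446 up and between 282 and 994 down, the highest of both without Naive replicate 1. Of all DESeq2 calls 59.5% were up, and of all edgeR calls 71.2%. The sources used here do not say whether a replicate number marks a shared animal or batch, although replicate 1 was the deeper library in both groups, and the deviations of same-numbered Naive and Th17 libraries from their group means had a Pearson r of -0.24 across genes, which are not independent. With the replicate block edgeR called 873 up and 434 down and DESeq2 719 and 381, and a crossed replicate block, chosen after seeing the data, gave 898 and 601. Among the 215 genes named, 51 calls were lost in the test against a fold change of 2, 29 with all 6 libraries and 28 with library size alone, while RLE size factors changed no call and DESeq2 ended 1. Without Th17 replicate 1 and 2 the calls of 16 and 18 named genes were lost. The 5 named genes whose sign turned were not called: over the fits that left out 1 library, *Ccr7* ranged from -0.16 to 0.28, *Tcf7* from -0.49 to 0.27, *Atp5b* from -0.37 to 0.35, *Ncapd2* from -0.61 to 0.15 and *Gimap3* from -0.019 to 0.57, and *Ccr7* was at -0.037 with library size alone. The cause of these differences was not tested. At 2 libraries a group and with depths that differ 3.48-fold and 3.38-fold, small changes and genes near the limit of detection are the least certain.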

Other observations

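Further gene lists held few or no calls. Of 8 Gimap GTPases, which keep resting T cells alive, edgeR and DESeq2 called none, with 2 higher at an unadjusted p under 0.05 and *Gimap3* at 628 and 945 CPM in Naive, 863 and 1002 in Th17. Of 9 SLAM family receptors tested edgeR called none and DESeq2 1 down, with 2 higher and 2 lower at an unadjusted p under 0.05. Leaving out Naive replicate 2 gave 1 up and 1 down, Naive replicate 1 gave 1 down and Th17 replicate 1 gave 1 up. Of 20 cytosolic aminoacyl-tRNA synthetases neither tool called any, with 3 lower at an unadjusted p under 0.05, and the median of -0.20 became 0.09 without Naive replicate 1. Of 20 heat shock and chaperonin genes edgeR called none and DESeq2 1 down, with 3 lower at an unadjusted p under 0.05, and *Hspa8* stood at 2252 and 1789 CPM in Naive, 2149.7 and 2941 in Th17. The heat shock median of -0.16 became 0.25 without Naive replicate 1, in which fit edgeR called 2 down, and it called 1 down with the replicate block or without any one of the other 3 libraries. Of 20 serine and folate pathway genes edgeR called none and DESeq2 2 down, with 1 higher and 5 lower at an unadjusted p under 0.05, and edgeR called 3 down without Naive replicate 2, 1 down without Th17 replicate 1 and 2 up without Naive replicate 1. Its median of -0.18 became 0.20 without Naive replicate 1. Of 12 genes of the MYC network edgeR called none and DESeq2 2 up and 1 down, with 3 higher and 4 lower at an unadjusted p under 0.05. Leaving out Naive replicate 1 gave 1 up and 2 down, Naive replicate 2 gave 2 up and 1 down, Th17 replicate 2 gave 2 up, and the replicate block gave 1 up. Of 39 replication-dependent histone genes tested edgeR called none and DESeq2 1 up and 1 down, with 5 higher and 7 lower at an unadjusted p under 0.05, and edgeR called 1 up and 1 down without Naive replicate 1. These transcripts mostly lack a poly(A) tail, and their summed level was between 54.8 and 65.0 CPM in the 4 libraries.

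Other lists held some calls, against 5.38% up and 2.18% down of all genes tested. The share called up was below that of all genes for 3.85% of the ATF4 and endoplasmic reticulum stress list. The same held for the mTORC1, autophagy and FOXO list (3.33%) and the Ras exchange factor and diacylglycerol kinase list (4.35%). In these last 2 lists the share called down, 3.33% and 4.35%, rested on 1 gene each. Of 26 ATF4 and endoplasmic reticulum stress genes *Trib3*, a stress pseudokinase, was called up (4.27 and 4.94 CPM in Naive, 14.8 and 17.4 in Th17, a call lost without Th17 replicate 1 (adjusted p = 0.0158) or Th17 replicate 2 (adjusted p = 0.0409)), and 4 genes were called up without Naive replicate 1 and 0 without either one of the Th17 libraries. Of 30 lysosome genes 3 were called up, *Cd63* (12 and 3.43 CPM in Naive, 60.1 and 177 in Th17), *Ctsf* (2.19 and 0.936 CPM in Naive, 12.8 and 18 in Th17) and *Lamp2* (52.9 and 35.6 CPM in Naive, 125 and 181 in Th17), with 9 without Naive replicate 1 and 6 without Naive replicate 2 or Th17 replicate 1. Of 20 tetraspanin and Ms4a genes tested 3 were called up and 1 down, *Ms4a4c* (22.4 and 19 CPM in Naive, 3.13 and 4.35 in Th17), with 9 called up without Naive replicate 1 and 5 without Naive replicate 2 or Th17 replicate 1. Of 30 mTORC1, autophagy and FOXO genes *Rragd*, a GTPase of the lysosomal nutrient sensor, rose (3.64 and 5.04 CPM in Naive, 23.4 and 22.5 in Th17, 2.41 ± 0.36) and *Deptor*, an inhibitor of mTOR, fell (7.14 and 3.12 CPM in Naive, 0.681 and 0.49 in Th17, -3.10 ± 0.60), and 6 genes were called down without Naive replicate 1. Of 23 Ras exchange factors and diacylglycerol kinases *Rasgrp4* was called up (6.67 and 12.3 CPM in Naive, 40.3 and 34.2 in Th17) and *Rasgrp2* down, with 8 called down without Naive replicate 1 and 7 by DESeq2. Of 7 phagocyte NADPH oxidase genes 3 were called up, *Cybb* (11.4 and 7.49 CPM in Naive, 77 and 83.8 in Th17), *Ncf1* (12.7 and 12.4 CPM in Naive, 68 and 53.2 in Th17) and *Ncf4* (41.6 and 50.8 CPM in Naive, 112 and 129.6 in Th17), and 5 without Naive replicate 1. T cells and phagocytes both express part of these lists, and the part of other cells in them was not tested. Of the 721 genes called up, 214 belonged to any list and 58 to a list of another cell type, and of the 292 called down 87 and 15. The 75 lists hold 1684 genes, not all of them tested, and were chosen with earlier results of these data known. These counts therefore do not show that the lists held more calls than other genes.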
